A study of Mus musculus with 4 samples.

Results

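Somatostatin cells without insulin were picked from droplet libraries of mouse pancreatic islets by their own hormone counts. A cell entered when Sst made up at least 1% of its counts and exceeded both Gcg (glucagon) and Ppy (pancreatic polypeptide), while Ins1 and Ins2 together stayed under 1%. Cells below 500 counts or 250 genes, or with over 25% of counts from mitochondrially encoded genes, were left out. The rule found 226 cells among 6948 deposited barcodes, of which 6566 passed the depth and mitochondrial limits. Sst, Gcg, Ppy, Ins1 and Ins2 chose the cells, so their levels are given as a description and were not tested.

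The study set islets of mice labelled WT beside islets of mice labelled Sin3A mutant, with 2 libraries of each genotype described as biological replicates. Cells were captured by inDrop, and their messenger RNA was amplified by CEL-Seq from the 3′ end. The sample titles carry a pair of numbers that occur once in each genotype, and the letters A and B stand for these numbers. The sources used here do not give the allele, the cells that carry it, the driver of any recombination, or the age, sex and strain of the mice. The members numbered 47 in WT A, 41 in mutant A, 55 in WT B and 83 in mutant B, and runs of 4 values below keep that order.

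Delta cells are the somatostatin producers of the islet. Their hormone acts at short range on neighbouring alpha and beta cells, where receptors coupled to inhibitory G proteins restrain the release of glucagon and insulin. Beta cells in turn release urocortin 3, which stimulates delta cells. The homeobox factor Hhex is required for delta cells in the mouse and is a standard marker of them.

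The Sst gene (ENSMUSG00000004366) lies on chromosome 16 from 23889573 to 23890958 on the minus strand in GENCODE release M21 on GRCm38. RefSeq places the start of the gene at 23890844, which is 114 bases downstream of the GENCODE start. Just upstream of the RefSeq start lies TGACGTCA, the element through which cyclic AMP signalling is known to act on somatostatin transcription. It is shown because the Sst transcript defines the cells, as 30 bases at chr16:23890874-23890903 (GRCm38.p6, minus strand, RefSeq), 5′ to 3′ with the element in capitals.
Sst promoter: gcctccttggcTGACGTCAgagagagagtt
The element begins 48 bases before the RefSeq start and lies inside the first exon of the longer GENCODE transcript. It reads the same on either strand and occurs in 508 of 32851 mouse promoter windows of 250 bases, or 1.55%. Among the 20 windows of the 15 somatostatin markers used here only the Sst window holds it, which describes these letters in these windows and nothing more.

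The members were shallow and unequal in depth. Their median counts per cell were 6419, 6121, 4695 and 3764, and their median genes per cell were 2562, 2096, 2201 and 1842. Glucagon cells of the same libraries, gated on Gcg in the same way, had medians of 8229, 6042, 5301.5 and 4844 counts. Insulin cells, with at least 1% insulin and each other hormone below 1%, had medians of 12920, 9326, 6126 and 6393 counts. Over all cell types the libraries held between 9282497 and 12835201 counts. Libraries of 1 genotype were not copies of each other: the chi-square per degree of freedom of the members' summed counts was 6.22 between the WT libraries and 9.41 between the mutant libraries. Across libraries 140 barcode sequences recurred, and 6 members carried one of them. Scrublet marked 40 of the 6566 cells as doublets, or 0.609%, including 3 members, and these were kept in the main results.

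Sst was the leading hormone of every member by the rule, but its share varied widely within each library. The median member gave 12.8%, 11.2%, 8.76% and 8.63% of its counts to Sst, and the extremes over all members were 1.53% and 26.4%. Both A libraries had higher medians than both B libraries, irrespective of genotype. Within 0.25 percentage points of the Sst limit there were 0 members inside and 1 cell outside. Within the same distance of the insulin limit there were 7 members inside and 11 otherwise eligible cells outside.

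**Figure D1:**
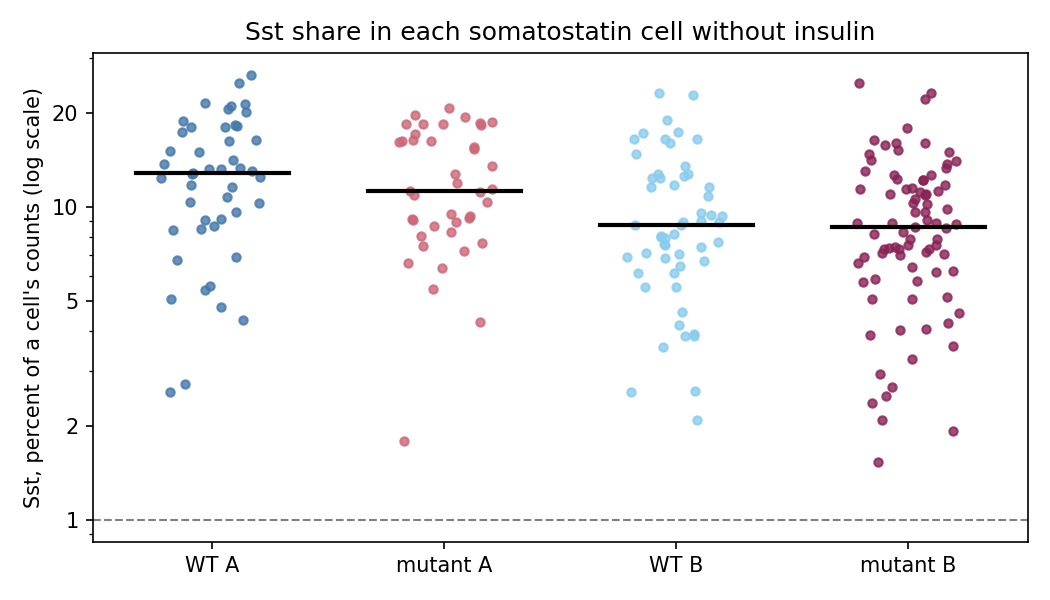
Share of Sst in the counts of each somatostatin cell without insulin (points, log scale, percent) in the 4 libraries, with the library median as a bar and the 1% limit dashed. The medians run from 8.63% in mutant B to 12.8% in WT A, and 197 of the 226 members lie at 5% or above.

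Insulin transcripts were present at a low level in the members and in cells of another type alike. The median member held 0.182%, 0.201%, 0.14% and 0.048% insulin, and the median glucagon cell held 0.137%, 0.177%, 0.131% and 0.039%. Insulin cells held 14.8%, 28.9%, 7.89% and 3.33%, in the same order of libraries. Thus the fixed limit of 1% stood closest to the insulin cells' own level in mutant B. In that library 10 other beta cell markers, with Iapp set aside, summed to 408 CPM in the members (CPM, counts per 1e6 counts of the summed cells). The other libraries gave 220, 136 and 103 CPM, and glucagon cells gave 359 to 540 CPM. With members limited to insulin under 0.5% the same sum was 222, 138, 104 and 195 CPM. Insulin cells gave 3539 to 5024 CPM for these 10 genes. With Iapp, Ins1 and Ins2 included, the 13 markers summed to 14887 to 21275 CPM in the members. Glucagon cells gave 4096.5 to 5900 CPM for the 13, and Iapp is described further below.

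Another islet hormone was common among the members. Gcg or Ppy reached 1% of counts in 56 of 226 members, Gcg in 18 and Ppy in 41. Cells with Ppy at that level numbered 5, 12, 18 and 6, so they were most frequent in WT B. Summed over the members Ppy stood at 4851, 8752, 10108 and 2551 CPM, against 552, 2053, 3370 and 1051 CPM in glucagon cells and 50.9 to 115 CPM in insulin cells. Counts without these 56 members are given among the processing alternatives as the single-hormone setting.

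Markers that the rule did not use fit the label of delta cells, with Hhex, Prr5l and Rbp4 at high levels in all 4 libraries. Hhex (chromosome 19, 37434810 to 37440731) was at 642, 352, 976 and 994 CPM. It had a count in 43 of 47, 31 of 41, 51 of 55 and 78 of 83 members. Glucagon cells had 18.8, 3.66, 43.9 and 45.5 CPM and insulin cells 1.03, 2.62, 3.49 and 6.81 CPM, so no library of either kind reached the lowest value of the members. After thinning every cell to 2000 counts Hhex was seen in 79.1%, 51.5%, 79.2% and 83.1% of the members, in 0.893% to 5.6% of glucagon cells and in 0.179% to 1.57% of insulin cells. Of 12 somatostatin markers tested 10 were called higher than in glucagon cells and 9 higher than in insulin cells by the tests described next, where 7.63% and 7.07% of all genes were called higher, and the 1 called lower than in glucagon cells was Edn3 (endothelin 3). All 9 glucagon markers tested were called lower than in glucagon cells, and all 9 insulin markers tested were called lower than in insulin cells (5.7% and 10.3% of all genes). These labels and lists were drawn up with results of the same libraries known.

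Comparing the members with glucagon cells asked which genes set them apart from these cells, which were also held to insulin under 1%. Polypeptide cells, gated on Ppy with the same insulin limit, were not tested against the members. Counts were summed per library and kind and tested with the library as a block. A gene is called here when its adjusted p (edgeR's quasi-likelihood test, Benjamini-Hochberg) was under 0.05. Of 7771 genes tested 593, or 7.63%, were called higher in somatostatin cells and 443, or 5.7%, lower. DESeq2 called 394 and 261 on the same sums, without mutant B the counts were 394 and 294, and with no filter on low counts the split turned to 483 higher and 893 lower. The comparisons with glucagon and insulin cells share the members' sums, so they are not independent of each other.

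The genes with the largest differences were nearly silent in glucagon cells. Prr5l, which encodes a partner of the mTOR complex 2, stood at 1238, 2981, 959 and 537 CPM in the members. Glucagon cells held 25.1, 30.5, 26.5 and 14.0 CPM. The fitted log2 difference was 5.64 ± 0.21 (SE from edgeR's F, n = 4 libraries, adjusted p = 1.4e-14). Mutant A was the highest of the members' libraries and mutant B the lowest, a range of levels that crossed the genotypes. Fam159b, a small Shisa-like membrane protein gene, was at 372, 344, 306 and 205 CPM against 3.66 to 6.13 CPM in glucagon cells (5.74 ± 0.23). Lactbl1, a gene of the beta-lactamase-like family, was at 654, 1077, 832 and 547 CPM against 8.06 to 23.5 CPM (5.59 ± 0.21). No library of glucagon cells overlapped the members for any of these 3 genes. As they were chosen by largest difference, this separation is part of the choice.

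Several of the leading genes encode channels, adhesion molecules and secreted proteins. Kcnt2, a potassium channel opened by sodium, differed by 4.98 ± 0.21 on the log2 scale, and Cd44, the hyaluronan receptor, by 4.79 ± 0.23. Cd24a, a surface glycoprotein anchored by lipid, was at 1796, 1853, 2588 and 1955 CPM in the members and at 72 to 145 CPM in glucagon cells. The prodynorphin gene Pdyn, an opioid peptide precursor, was at 24.8, 68, 155 and 56.5 CPM and had no count in the glucagon cells of mutant A. Pnlip, the pancreatic lipase, was at 31, 68, 85.9 and 95 CPM in the members, with 9, 12, 18 and 24 members holding a count. Summed markers of acinar cells, which make digestive enzymes, were at 52.7, 128, 148 and 167 CPM in the members and 13.4 to 273 CPM in glucagon cells. Their part in the Pnlip result was not tested. Txlnb (5.39), Hhex (4.74), Frzb (4.59), a Wnt antagonist, and Sez6l (4.39), a neuronal membrane protein gene, complete the 12 genes that ranked highest.

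**Figure D2:**
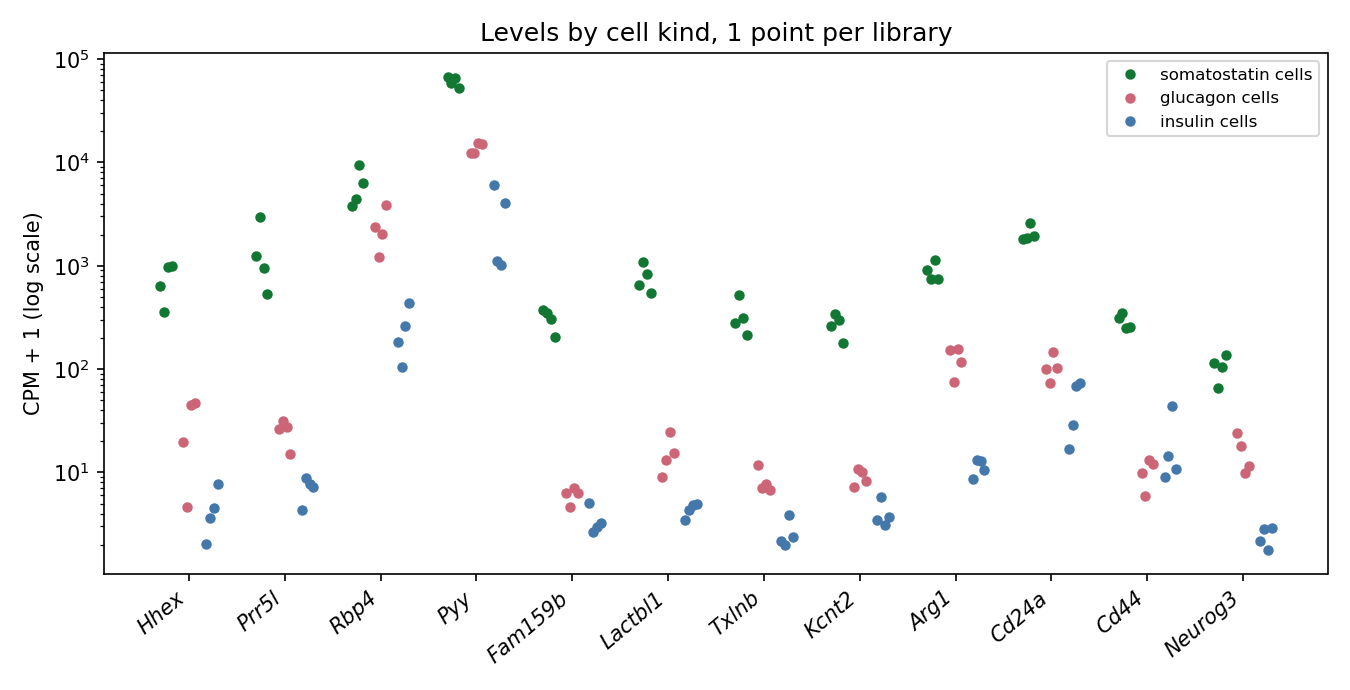
CPM + 1 on a log scale for 12 genes in somatostatin, glucagon and insulin cells, 1 point per library. The members' points lie above all points of the other kinds, from 64 to 136 CPM for Neurog3 up to 52104 to 67575 CPM for Pyy. The exception is Rbp4, where 1 library of glucagon cells (3863 CPM) exceeded the members of WT A (3750 CPM). For genes named by their large difference the separation is part of the choice.

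The somatostatin receptor Sstr2 was the gene furthest below glucagon cells. It had 3.1, 0, 0 and 2.57 CPM in the members, which is 1, 0, 0 and 1 counts, and 87.8, 86.7, 79.6 and 78.9 CPM in glucagon cells. The log2 difference was -5.58 ± 0.49 (adjusted p = 2.7e-08). Unthinned, 19.5% to 27.1% of glucagon cells and 0.664% to 1.05% of insulin cells had an Sstr2 count. The receptor through which somatostatin restrains glucagon release was thus detected in glucagon cells and hardly at all in the cells that make the ligand.

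Other genes that ranked low against glucagon cells were transcription factors, carriers and metabolic genes. Irx1 fell by 4.29 and Irx2 by 3.20 on the log2 scale, both Iroquois homeobox genes. Ttr (transthyretin, a carrier of thyroid hormone), Slc38a5 (a glutamine transporter) and Vgf (a secreted neuropeptide precursor) differed by -3.86, -3.84 and -3.52. Higd1a (-3.16), Id3 (-2.90) and Pdk4 (-2.88), a kinase that restrains pyruvate dehydrogenase, were lower too. Ube2c, a mitotic ubiquitin carrier, is described with the cell cycle. Tmsb15b2 (-3.32) has close copies in the thymosin family, so its counts are uncertain.

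Comparing the members with insulin cells asked the same of the most numerous islet cells. Of 12569 genes tested 889, or 7.07%, were called higher in the members and 1290, or 10.3%, lower (DESeq2: 828 and 797; no filter on low counts: 679 and 2347). The genes furthest above insulin cells were largely those furthest above glucagon cells: Lactbl1 (7.68 ± 0.20), Hhex (7.67 ± 0.25), Prr5l (7.56 ± 0.25), Txlnb (7.52 ± 0.25), Fam159b (6.78 ± 0.23), Kcnt2 (6.31), Pnlip (6.16) and Cd24a (5.55). The other 4 of the 12 were Gap43, Arg1, Neurog3 and Tspan8, which did not rank among the 12 against glucagon cells.

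Arg1, the arginase of the urea cycle, stood at 909, 744, 1141 and 747 CPM in the members, 150, 73.3, 154 and 115 CPM in glucagon cells and 7.71 to 12.1 CPM in insulin cells. Gap43, a growth cone protein of neurons, varied more, with 93, 164, 571 and 221 CPM in the members. Tspan8, a tetraspanin, was at 205, 148, 244 and 136 CPM against 2.38 to 7.38 CPM in insulin cells. All 3 genes were also called higher than in glucagon cells, by 2.87, 3.55 and 2.94 on the log2 scale.

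Genes of beta cells were among those lowest in the members. Mnx1, a homeobox factor that beta cells need, had no count in any of 226 members, which allows a share of up to 1.33% of cells with a count. Insulin cells held 40.9, 53.5, 92.4 and 63.1 CPM, so the members were at least 25-fold lower when 3 counts over the group (2.4 CPM) are taken as the floor. Ucn3, the urocortin that signals from beta to delta cells, was at 3.1, 4, 6.87 and 0 CPM in the members and at 176, 441, 971 and 209 CPM in insulin cells (-7.11 ± 0.32). Npy (-6.22), neuropeptide Y, G6pc2 (-5.86), a glucose 6-phosphatase, and Bace2 (-5.71), a protease of the beta cell surface, also ranked among the 12 lowest. In no library did the members reach the insulin cells for these 5 genes, a separation that is part of choosing genes by largest difference.

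The other genes that ranked lowest against insulin cells were uneven across the insulin cells themselves. Klk1, a tissue kallikrein, was at 899, 4184, 339 and 122 CPM there and at 5.14 to 16 CPM in the members. Mutant A was likewise the highest library of insulin cells for Abi3, Plag1, Zbtb48, Defb9, Trp73os and Palm3. Mutant A was also highest for Ins1 in insulin cells (169169 CPM, against 19466 to 80632 CPM in the other libraries), and the part of insulin level in these differences was not tested. Trp73os is an antisense gene, and the sources used here do not say whether the counting used strand.

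Among 27 islet transcription factors 24 could be tested against glucagon cells and 25 against insulin cells. Against glucagon cells 8 were called higher and 9 lower (all genes: 7.63% and 5.7%), with a median log2 difference of -0.07 where all genes tested had -0.03. Against insulin cells 10 were called higher and 7 lower (all genes: 7.07% and 10.3%), with a median of 0.16 where all genes had -0.08. The members thus shared factors with each of the other kinds and lacked factors of each.

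Factors of the insulin side were split. Pdx1, which controls beta and delta cell genes, was at 140, 108, 44.7 and 36.0 CPM in the members, 3.58 to 6.47 CPM in glucagon cells and 191, 202, 112 and 68.9 CPM in insulin cells. It was called higher than in glucagon cells (3.87 ± 0.40) and lower than in insulin cells (-0.99 ± 0.19), and in both kinds that hold it the A libraries were above the B libraries. Nkx6-1, a beta cell identity factor, was at 130, 20, 20.6 and 113 CPM in the members against 436 to 711 CPM in insulin cells (-3.06 ± 0.27), and it did not pass against glucagon cells (-0.10 ± 0.23). Neurod1 and Nkx2-2, general endocrine factors, were called lower than in either kind, at -0.86 and -0.98 against glucagon cells and -1.27 and -1.38 against insulin cells.

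Etv1, Irx1 and Irx2 were lower in the members than in glucagon cells and higher than in insulin cells. Etv1, a transcription factor of the ETS family, was at 133, 156, 148 and 146 CPM in the members, 304 to 555 CPM in glucagon cells and 4.5 to 10.6 CPM in insulin cells. It differed by -1.55 ± 0.17 from glucagon cells and by 4.09 ± 0.24 from insulin cells, and these 3 kinds did not overlap. Polypeptide cells, which were not tested, held 153, 372, 460 and 243 CPM of Etv1. Irx1 and Irx2 were also called higher than in insulin cells (3.15 and 3.92). Isl1 (1.60), Prox1 (1.68), Meis2 (1.14) and St18 (0.87) were also called higher than in insulin cells, and Isl1 and Prox1 did not pass against glucagon cells (0.27 and -0.23).

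**Figure D3:**
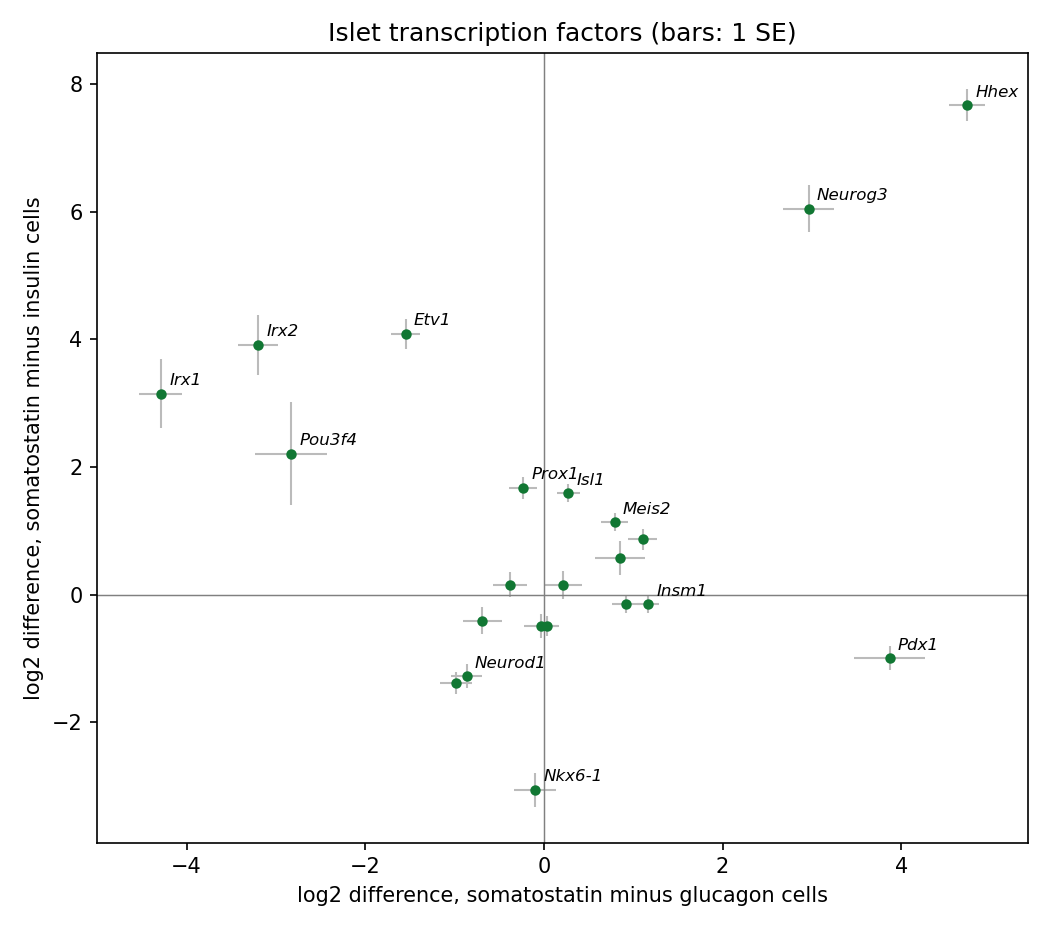
Islet transcription factors tested in both comparisons, with the log2 difference from glucagon cells on the x axis, that from insulin cells on the y axis and bars of 1 SE. Among the labelled genes Hhex and Neurog3 lie above both kinds, and Irx1, Irx2 and Etv1 lie below glucagon cells and above insulin cells.

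Neurog3, the factor of endocrine progenitors, was found in the members at 115, 64, 103 and 136 CPM. Glucagon cells held 23.3, 17.1, 8.85 and 10.6 CPM and insulin cells 1.16, 1.8, 0.775 and 1.87 CPM. The log2 differences were 2.96 ± 0.29 (adjusted p = 1.1e-07, edgeR) and 6.05 ± 0.37 (adjusted p = 4.7e-12, edgeR). The members' lowest library lay above the highest of either kind. Its separation from insulin cells is part of choosing genes by largest difference. Cells with both somatostatin and insulin, described below, held 48.0, 60.9, 0 and 30.5 CPM of Neurog3, the 0 from 3 cells in WT B. The transcript was spread over cells: 12, 9, 19 and 26 members held a count, and the member with most held 13.2% to 25% of a library's Neurog3 counts. After thinning to 2000 counts it was seen in 14%, 9.09%, 27.1% and 19.7% of members, 0.794% to 2.44% of glucagon cells and 0% to 0.362% of insulin cells. Sox9, a factor of ducts and progenitors, was seen in 34.9%, 18.2%, 29.2% and 21.1% of members, 1.85% to 4.09% of glucagon cells and 0.548% to 1.61% of insulin cells. Summed ductal markers, Sox9 included, were at 1355, 1209, 804 and 629 CPM in the members and 477 to 907 CPM in glucagon cells.

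Prohormone processing and granin genes, which mature and pack peptide hormones, were split as well. Of 11 genes tested 3 were called higher and 3 lower against glucagon cells (all genes: 7.63% and 5.7%), and 2 higher and 5 lower against insulin cells (all genes: 7.07% and 10.3%). Scg2 (secretogranin 2) was at 2593, 3338, 6200 and 3768 CPM in the members and 647 to 1311 CPM in glucagon cells, a log2 difference of 2.01 ± 0.17. Chgb (chromogranin B) behaved alike with 1.98 ± 0.16, and both were near insulin cells, at 0.09 and 0.44, where only Chgb passed (adjusted p = 0.031). Chga (chromogranin A) was lower than in insulin cells in each library, at 747, 828, 1715 and 1762 CPM against 4716, 4144, 7653 and 7574 CPM (-2.43 ± 0.14). The convertase gene Pcsk1 was at 34.4 to 52.7 CPM, above glucagon cells (9.19 to 15.5 CPM) and below insulin cells (126 to 219 CPM), and both differences passed.

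Among other peptides Pyy and Iapp were abundant. Pyy, a hormone of the neuropeptide Y family, stood at 67575, 59205, 66120 and 52104 CPM in the members, against 12256 to 15541 CPM in glucagon cells (2.17 ± 0.17). Insulin cells held 6075, 1118, 1019 and 4043 CPM (4.59 ± 0.32). The polypeptide cells held more than the members, with 103557 to 127548 CPM, a difference that was not tested. Every member had a Pyy count, and within libraries its share ran from 0.525% to 15.8% in WT A and from 0.82% to 24.2% in mutant B. Across the cells of a library Pyy and Sst shares had Spearman coefficients of -0.20, -0.24, 0.11 and 0.23 (47, 41, 55 and 83 cells that share depth and a common total), so no common order was seen.

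Iapp, the amyloid polypeptide that beta cells release with insulin, was at 14612, 12626, 19807 and 17970 CPM in the members. It was called higher than in glucagon cells (2.39 ± 0.17) and lower than in insulin cells (-1.04 ± 0.13). Rbp4, the plasma carrier of retinol, was at 3750, 4458, 9366 and 6347 CPM and passed against both kinds, by 1.38 ± 0.20 and 4.56 ± 0.20. Ghrl (ghrelin) rested on few cells: it was at 155, 64, 85.9 and 2.57 CPM from 6, 1, 5 and 1 members, and in mutant A 1 member held all 16 counts.

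Receptors decide which nutrients, nerves and hormones a cell can answer. Of 28 receptor genes 13 could be tested against glucagon cells, with 5 called higher and 3 lower (all genes: 7.63% and 5.7%), and 17 against insulin cells, with 5 called in each direction (all genes: 7.07% and 10.3%). Adra2a, the adrenergic receptor through which sympathetic nerves inhibit islet cells, was at 80.6, 44, 37.8 and 71.9 CPM. That was above glucagon cells (3.04 ± 0.39) and below insulin cells (-1.95 ± 0.20). Ffar4, a long-chain fatty acid receptor, was at 211, 128, 113 and 97.6 CPM and passed above both kinds (1.12 and 1.88), whereas Ffar1, another fatty acid receptor, passed below both (-1.68 and -3.17). Ghsr, the ghrelin receptor, was at 24.8, 104, 30.9 and 20.5 CPM, called higher than in glucagon cells (1.66) and not different at the threshold from insulin cells (0.27 ± 0.31). The urocortin receptor Crhr2 had 9.3, 4, 3.44 and 5.14 CPM, from 3, 1, 1 and 2 counts, too few to place.

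Of 21 channel genes 12 could be tested against glucagon cells, with 5 called higher and 2 lower (all genes: 7.63% and 5.7%), and 18 against insulin cells, with 6 higher and 2 lower (all genes: 7.07% and 10.3%). Cacna1h, a calcium channel of the T type that opens at low voltage, was at 52.7, 44, 55 and 23.1 CPM in the members. Glucagon and insulin cells held 2.69 to 9.77 CPM (log2 differences of 3.06 ± 0.40 and 2.97 ± 0.38). Polypeptide cells held up to 18.6 CPM and cells with both somatostatin and insulin up to 18.7 CPM. The sodium channel genes Scn3a and Scn9a were called higher than in glucagon cells, by 1.20 and 2.23, and Scn3a also than in insulin cells (2.29). The subunits of the ATP-sensitive potassium channel, Kcnj11 and Abcc8, were called higher than in both, by 0.92 and 0.71 against glucagon cells and by 0.90 and 0.57 against insulin cells. Trpm5, a cation channel of beta cells, had 2 counts in the members, all in mutant B, against 48.3 to 100 CPM in insulin cells.

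Exocytosis genes move and fuse the hormone granules. Of 17 genes 2 were called higher and 2 lower among 13 tested against glucagon cells (all genes: 7.63% and 5.7%). Against insulin cells 2 were called higher and 5 lower among 16 tested (all genes: 7.07% and 10.3%). Rab3b, a vesicle GTPase, led with 419, 392, 357 and 349 CPM and differences of 2.40 and 1.83. Cplx2, a complexin of vesicle fusion, passed at 0.63 and 0.64, and Cadps, a priming factor of dense-core vesicles, was lower in each comparison, at -1.66 in both.

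Unfolded protein response genes, which serve protein folding in the endoplasmic reticulum, were lower in the members than in insulin cells. Against insulin cells 13 of 19 tested were called lower and 1 higher (all genes: 10.3% and 7.07%), with a median of -1.39 where all genes had -0.08. Against glucagon cells 4 of 16 were called higher and 12 did not pass (all genes: 7.63% higher), with a median of 0.21 where all genes had -0.03.
The chaperone gene Hspa5 was at 1089, 912, 1478 and 1497 CPM in the members and 3276, 2221, 4139 and 4172 CPM in insulin cells (-1.59 ± 0.13), while glucagon cells had 585 to 1231 CPM (0.46 ± 0.13). Sdf2l1, a partner of that chaperone, differed most from insulin cells, by -2.78 ± 0.17, and Ern1, the stress sensor IRE1, was the 1 gene called higher (0.65).

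Immediate early genes, which rise when tissue is dissociated, were called higher than in insulin cells for 8 of 17 and lower for 1 (all genes: 7.07% and 10.3%), with a median of 0.50 where all genes had -0.08. Against glucagon cells 4 were called higher and 1 lower (all genes: 7.63% and 5.7%), with a median of 0.01 where all genes had -0.03. Atf3, a stress factor, was at 292, 244, 302 and 465 CPM in the members, at 244 to 470 CPM in glucagon cells and at 57 to 85.2 CPM in insulin cells. The heat shock gene Hspa1b was at 43.4, 72, 1327 and 447 CPM in the members, highest in WT B, and insulin cells had the same order of libraries (2.83, 29.5, 865 and 162 CPM). What dissociation contributes to the comparisons was not tested.

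Cell cycle genes were low in the members against both other kinds. Of 20 genes 14 of 19 tested were called lower than in glucagon cells (all genes: 5.7%), with a median of -1.49 where all genes had -0.03. Against insulin cells 17 of 20 were called lower (all genes: 10.3%), with a median of -1.80 where all genes had -0.08. No gene of the list had a positive difference in either comparison. Mki67, the proliferation antigen, was at 18.6, 12, 10.3 and 5.14 CPM in the members, 33.9 to 57.4 CPM in glucagon cells and 44.6 to 65.6 CPM in insulin cells. Ube2c differed by -3.35 ± 0.32 and -3.66 ± 0.29, and Cdk1, the mitotic kinase, by -2.28 ± 0.33 and -2.56 ± 0.32.

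**Figure D4:**
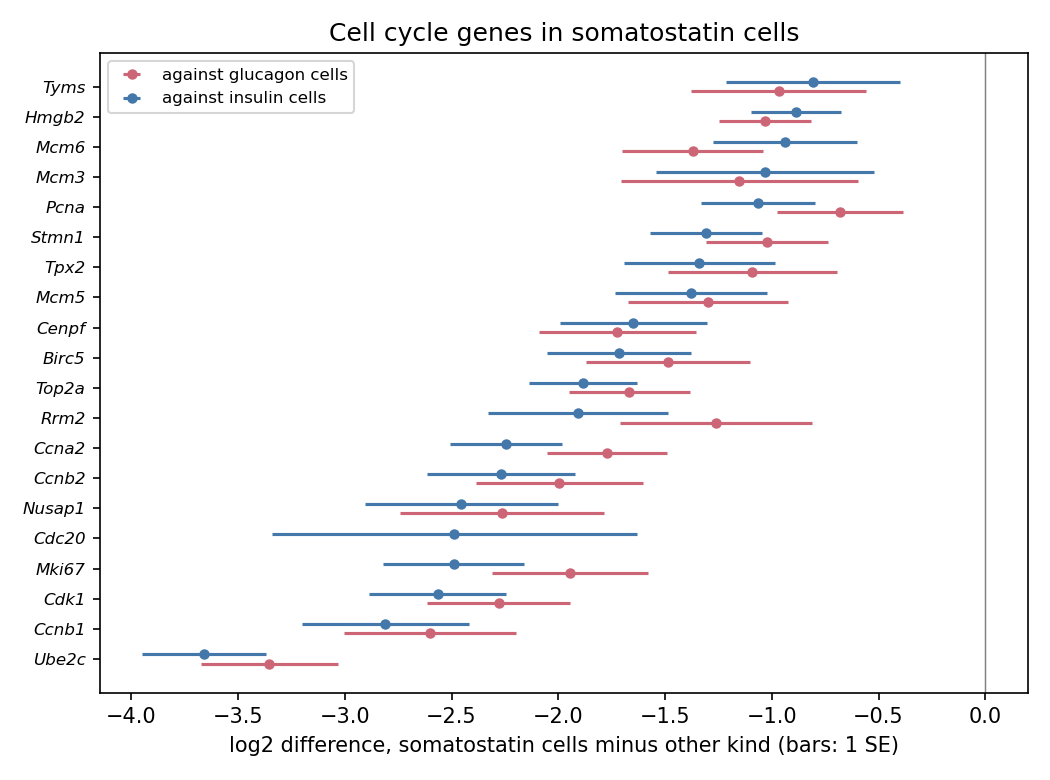
Log2 difference of cell cycle genes between somatostatin cells and glucagon or insulin cells, with bars of 1 SE from 4 libraries. All points lie below 0, down to -3.66 for Ube2c against insulin cells, and Cdc20 was tested against insulin cells only.

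Shares of cycling cells were counted as well. A cell was scored as cycling when 9 markers together had 2 counts or more in a random draw of 2000 of its counts, which left out 4, 8, 7 and 12 members below that depth. Cycling members then numbered 2 of 43, 1 of 33, 2 of 48 and 0 of 71, or 4.65%, 3.03%, 4.17% and 0%, where 0 of 71 allows a share of up to 4.23%. Glucagon cells gave 8.94%, 9.82%, 10.8% and 17.5% and insulin cells 18.3%, 15.4%, 14.9% and 18.6%. Exact (Clopper-Pearson) 95% intervals of the members reached 15.8%, 15.8%, 14.3% and 5.06%, covering counting error only. Unthinned, the members' shares were 6.38%, 22%, 9.09% and 7.23%, with 18.1% to 24.1% in glucagon cells and 23.5% to 32.2% in insulin cells.

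The share of cycling members was 4.41% ± 0.34 (SD, n = 2) in the WT libraries and 1.52% ± 2.14 (SD, n = 2) in the mutant libraries. The exact permutation test, on both sides, gave p = 0.333, the smallest that 2 libraries against 2 allow, so no difference between genotypes could pass. Without thinning the difference turned from -2.89 to 6.85 percentage points, with mutant A at 22% and the other 3 libraries below 10%.

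Somatostatin was also found together with insulin in another 294 cells, and the members were compared with them. These cells numbered 128, 66, 3 and 97, and their median depths of 12677.5, 9882.5, 557 and 7427 counts exceeded those of the members except in WT B. Of 5498 genes tested 180, or 3.27%, were called higher in the members and 138, or 2.51%, lower. The 3 cells of WT B held 1765 counts in all; without WT B the calls were 260 and 307. Leaving out WT A gave 18 and 23 calls, and leaving out mutant B 35 and 31.

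Of 7 insulin markers tested 6 were called lower in the members (all genes: 2.51%), and of 10 somatostatin markers 5 were called higher (all genes: 3.27%). The cells were split by their Ins1 and Ins2 counts, so other beta cell markers are not independent of the gate. G6pc2 was at 12.4, 16, 0 and 30.8 CPM in the members against 730, 444, 0 and 359 CPM (-4.61 ± 0.41). Sytl4, a granule protein that binds Rab27, and Slc2a2, the glucose transporter GLUT2, differed by -4.09 and -3.68, followed by Tmem215, Ero1lb and Prss53. Higher in the members were Spock3 (2.13 ± 0.38), an extracellular proteoglycan, Tspan8 (2.03), Enpep (1.98), an aminopeptidase, Peg10 (1.97), an imprinted gene, Cbln4 (1.94) and Itgb8 (1.88), an integrin. Cbln4, a secreted cerebellin, had no count in the members of WT A and 240, 347 and 126 CPM in the other libraries, and its call was lost with DESeq2 (adjusted p = 0.631). Spock3 lost its call without WT A and Itgb8 without mutant B. Fam159b, Txlnb and Kcnt2 were called higher in the members by 1.55 to 1.68.

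The genes whose levels followed Sst most closely were ranked by Spearman's coefficient over 20 sums, 5 hormone kinds in 4 libraries, among 6930 genes with a mean of at least 20 CPM. The closest 10 were Fam159b (0.858), Lactbl1 (0.846), Prr5l (0.836), Gap43 (0.824), Txlnb (0.822), Cd24a (0.815), Arg1 (0.814), Hhex (0.809), Neurog3 (0.801) and Vcan (0.794), the proteoglycan versican. The sums share cells, depth and library within a kind, so the coefficients describe these sums and carry no test. Within the members of a library Prr5l shares had positive coefficients with Sst shares, at 0.45, 0.53, 0.42 and 0.60 across cells. Hhex did not keep 1 sign, with 0.31, 0.03, -0.31 and 0.18.

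Somatostatin cells of mutant and WT mice were compared to ask what the Sin3A mutation changes in them. Of 5359 genes tested 0, or 0.0%, passed in either direction with edgeR, and DESeq2 called 0 as well. At an unadjusted p under 0.05 edgeR gave 14 higher and 5 lower genes, and DESeq2 6 and 1. Both lie well below a share of 0.05 of the 5359 genes, which that limit would pass if no gene changed. With 2 libraries per genotype, counts of 0 do not show that the genes are unchanged.

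Sin3a, the scaffold of a histone deacetylase complex and the gene named by the labels, was at 40.3, 76.0, 24.1 and 5.14 CPM in the members. That is 13, 19, 7 and 2 counts in 8, 6, 5 and 2 members. Mutant A stood above WT A and mutant B below WT B, and the fitted difference was 0.28 ± 1.02 (log2, n = 2 per genotype, adjusted p = 1 by edgeR). The libraries read the 3′ end of each transcript, and the changed part of the gene is not known from the labels, so these counts do not check them. The 12 genes of the Sin3 complex list that were tested, Sin3a included, had a median of 0.14 where all genes had 0.01, with 6 positive and 6 negative.

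Of the 5 lower genes of smallest p, Rhot2, a GTPase of mitochondrial transport, stood at 68.2 and 65.3 CPM in the WT libraries (mean 66.8 ± 2.1, SD, n = 2) and at 16.0 and 15.4 CPM in the mutant libraries (15.7 ± 0.42, SD, n = 2). Its log2 difference was -2.08 ± 0.68, with an unadjusted p of 0.0104 and an adjusted p of 1 (edgeR), and it rested on 22, 4, 19 and 6 counts. Dct, a tautomerase of pigment synthesis, was at 99.3, 28, 58.4 and 23.1 CPM, and Snrpc, a splicing protein gene, at 80.6, 24, 72.2 and 33.4 CPM. Fam3a, at 71.3, 20, 41.2 and 15.4 CPM, and Mllt6, a chromatin protein gene, at 62, 12, 58.4 and 28.3 CPM, completed the 5. None of the 5 passed the adjusted threshold, and as they were chosen by smallest p, the separation of their groups is part of the choice.

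Among the higher genes of smallest p, Postn and Sparc depended on few cells. Postn, a matrix protein of mesenchymal cells, was at 9.3, 80.0, 10.3 and 48.8 CPM (2.66 ± 0.80, adjusted p = 1 by edgeR). In mutant A 1 member held 18 of its 20 counts, and without that member the level was 8.31 CPM. Sparc, a matrix protein of stroma and vessels, was at 34.1, 444, 34.4 and 51.4 CPM, and 1 member of mutant A held 63 of 111 counts. Without mutant B Sparc passed at an adjusted p of 2.4e-05 (edgeR; the range over its alternatives was 2.4e-05 to 1), and without mutant A its difference was 0.51. Cwc25, a splicing factor gene, Cldn11, a claudin of tight junctions, and Htra2, a mitochondrial protease, were at up to 124, 157 and 92.5 CPM in a mutant library. Without the member with most counts these 3 levels were 65.7, 125 and 84.3 CPM.

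Markers of some other cell types were highest in a mutant library and those of others in a WT library. The 9 mesenchymal markers summed to 205, 504, 82.5 and 252 CPM in the members, the 7 endothelial markers to 43.4, 252, 30.9 and 20.6 CPM, and the 5 Schwann markers to 12.4, 144, 41.2 and 12.8 CPM. Every gene of these lists had a count in the members. Endothelial and Schwann markers were also highest in mutant A in glucagon cells (459 and 59.8 CPM) and insulin cells (72.3 and 27.9 CPM). Mesenchymal markers peaked in WT A in glucagon cells (407 CPM) and in mutant A in insulin cells (173 CPM). In the members ductal and ghrelin markers were highest in WT A (1355 and 155 CPM) and immune markers in WT B (182 CPM). Rgs5, a pericyte gene, had 55 counts in mutant A, all in 1 member. Erythroid genes stood at 12.4, 24, 24.1 and 1469 CPM in the members. There 1 member of mutant B held 370 of its 376 counts of Hbb-bs, an adult hemoglobin gene. In glucagon cells erythroid genes were highest in WT B, at 663 CPM. Without the member with most counts Rgs5 fell to 0 CPM in mutant A and Hbb-bs to 15.6 CPM in mutant B. The part of these cells in the genotype comparison was not tested beyond these values.

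**Figure D5:**
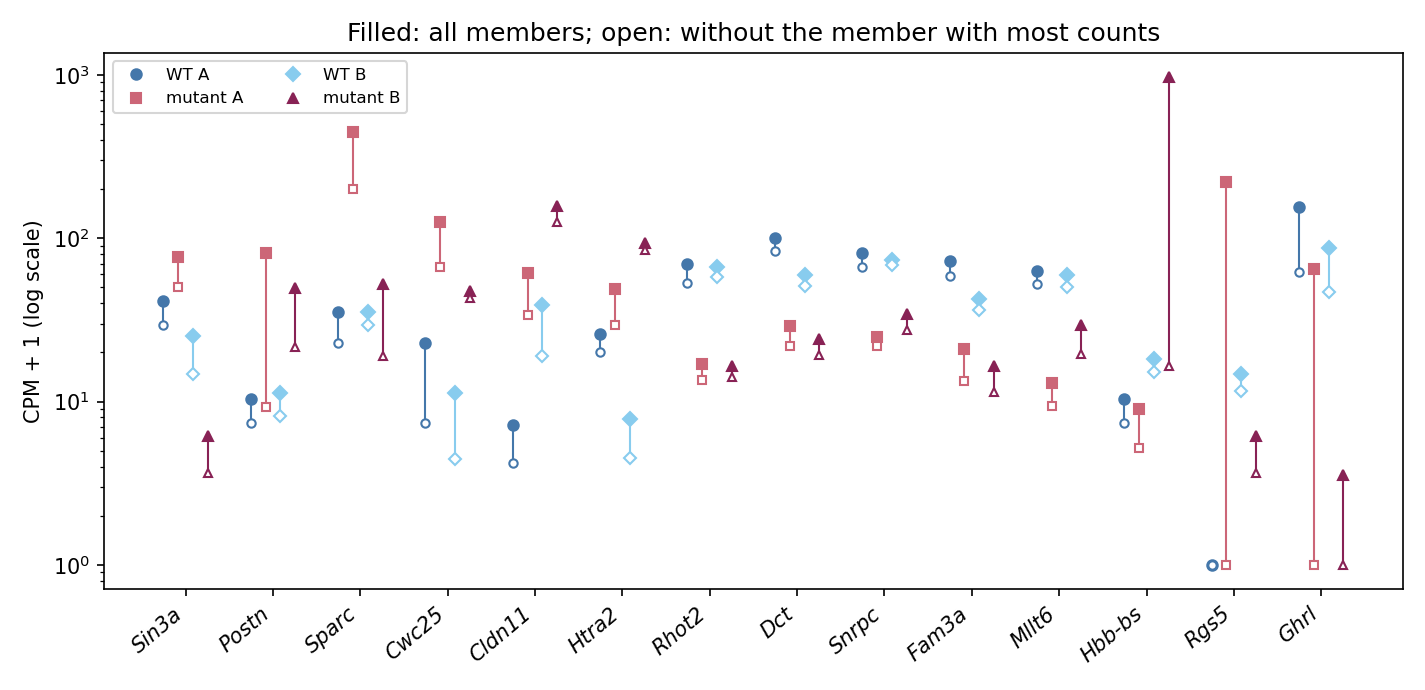
CPM + 1 (log scale) of Sin3a, the 10 genes of smallest p between genotypes, Hbb-bs, Rgs5 and Ghrl in the members of each library. Filled symbols use all members and open symbols leave out the member with most counts of that gene, which takes Hbb-bs in mutant B from 966 to 15.6 CPM and Postn in mutant A from 80.0 to 8.31 CPM.

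Summed Sst was at 123895, 114893, 96784 and 89012 CPM, a mean of 110340 ± 19170 (SD, n = 2) in WT and 101952 ± 18300 (SD, n = 2) in mutant libraries, given without a test. Within A and within B the mutant library was the lower. Pyy was at 67575 and 66120 CPM in WT and at 59205 and 52104 CPM in mutant libraries, and its fitted difference was no larger than its SE. Hhex differed by -0.30 ± 0.54, Prr5l by 0.73 ± 0.68 and Pyy by -0.26 ± 0.27 between mutant and WT (log2, adjusted p = 1 each by edgeR). Prr5l was higher in mutant A than in WT A by 1.27 and in mutant B against WT B it differed by -0.84 on the log2 scale. Of the 9 somatostatin markers tested 3 had a positive and 6 a negative difference, with a median of -0.26, and 0 were called. All 5359 genes tested had 2700 positive and 2659 negative differences, with a median of 0.005.

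The share of somatostatin cells among hormone cells was 5.02%, 4.42%, 3.87% and 5.59%. The mean was 4.44% ± 0.81 (SD, n = 2) in WT and 5.01% ± 0.83 (SD, n = 2) in mutant libraries, and the exact permutation test gave p = 0.667 on both sides, with 0.333 the smallest p possible. Within A the mutant library was lower and within B it was higher. As a share of all 6566 passing cells the members made up 3.85%, 3.58%, 3.06% and 3.46% (p = 1, exact permutation). Leaving out WT B or mutant B brought the difference from 0.567 to -0.00808 and -0.0177 percentage points.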

How the data were processed

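Islet cells from 4 inDrop libraries were analysed, 2 labelled WT and 2 labelled Sin3A mutant. The deposited values are whole-number counts per gene and barcode, not normalized, per the labels' protocols from CEL-Seq amplification and NextSeq500 sequencing. The builds GRCh38 and GRCm38 are named in the submitters' processing notes; the aligner, annotation, collapsing of molecular barcodes and choice of barcodes are not stated there. The design text calls the libraries biological replicates and does not tie them to animals, so the p-values rest on the spread among 4 libraries.

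Counts were summed per library and hormone kind. Glucagon cells held Gcg at 1% or more and above Sst and Ppy, with insulin under 1%; insulin cells held insulin at 1% or more with Sst, Gcg and Ppy each under 1%. The sums were tested with edgeR 4.0.16 (R 4.3.3; quasi-likelihood, TMM, its filter on low counts; adjusted p under 0.05), with the library as block between kinds and no block between genotypes. Gating hormones and mitochondrially encoded genes were left out of the fits, and CPM use all counts, so a ratio of CPM differs slightly from a fitted difference. DESeq2 1.42.0 was an alternative. Alternatives changed the tool, the filter, the gate limits, doublets (Scrublet), pairing, thinning and the libraries used. Fits were tested on simulated data. Of the listed genes Amy2b was not analysed here, and some named or listed genes are counted but not reported here.

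Named genes are Sin3a, the 5 of smallest p per direction between genotypes, and the 12 of largest difference per direction between kinds (6 against cells with insulin) among called genes with a mean of 50 CPM or more in the higher kind. Predicted genes and genes named after clones were passed over. Members of the lists of islet genes and cell type markers may be named too. The members, markers, lists and rules were chosen with earlier results of these data known. Outlier checks used log2(CPM + 2). The single-hormone setting and the levels without the member with most counts were added after the data were seen.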

Additional observations from a re-analysis of the deposited data

Results flagged for a closer look

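Of 48 differences checked, 24 against each other kind, 1 stood apart in a library, that of Neurog3 from insulin cells. Its log2 difference between the members and insulin cells was 4.12 in mutant A, against 5.21, 5.24 and 5.16 in WT A, WT B and mutant B. Chance marks about 1 in 20 groups of 4 libraries in this way. In mutant A the members held 16 Neurog3 counts in 9 of 41 cells.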

How the results depend on the processing

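Between genotypes 0 genes were called by edgeR with every member library; 6 passed with no filter on low counts (21975 genes), and 2 to 8 when a library was left out. Among these were Hbb-bs, Rgs5 and Ghrl, which rest on few cells. Others among them were Sparc, Hspa1a, Hspa1b, Apoe, Bcl7c, Cbln4 and Tnf. The title numbers are shared by the genotypes, and deviations of same-numbered libraries correlated at 0.197 over 5359 genes. The replicate block gave 0 calls (27 higher and 12 lower by unadjusted p under 0.05). With 2 pairs whose numbers the labels do not explain, the libraries share only a number. Sin3a turned to -0.165 with the block, ranged from -2.63 (without mutant A) to 1.25 (without mutant B) when a library was left out, and was -0.0181 without WT B. Against glucagon cells the 1036 calls became 655 with DESeq2 and 688 to 932 when a library was left out, 632 of the 688 without mutant B being among the 1036. Against insulin cells the range was 1606 to 1808. Against cells with insulin the 318 calls became 178 with Sst at 5% or more, where WT B held no such cell and was dropped, and 41 to 567 when a library was left out. No shared call changed direction. All 24 genes chosen by the naming rule per comparison against glucagon and insulin cells kept direction and call under the 11 alternatives. The difference in the share of somatostatin cells ran from -0.0177 to 1.15 percentage points when a library was left out, -0.00808 without WT B. The cycling share ran from -4.41 to -1.38 and turned to 6.85 without thinning. Without members holding Gcg or Ppy at 1% the calls were 0, 822, 1903 and 259. Low depth limits genes under about 3 counts per kind, or 2.4 CPM over the members.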
